A study of Mus musculus with 2 samples.

Results

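Relay nuclei of the thalamus were followed in brain sections of 2 male C57Bl6 mice aged 3 months at the impact. Of these, 1 was killed 3 days and the other 28 days after controlled cortical impact (CCI). In CCI, bone over the right parietal lobe was removed and a piston of 3 mm diameter struck there 2 mm deep, to model a traumatic contusion. Per the methods, ketamine, medetomidine, buprenorphine and local bupivacaine were given at surgery, and no section from a mouse with sham surgery was analysed here. Visium HD was used, an assay in which gene probes bound to fixed tissue are counted as unique molecular identifiers (UMIs) on a grid, read here in squares (bins) of 16 µm, each of which may cover pieces of more than 1 cell. The relay bins were chosen by measured values. In each bin with at least 100 UMIs, the share of UMIs from Tcf7l2, Prkcd and Lef1 was taken over the surrounding block of 5 by 5 bins, blocks with 3 or more UMIs of Gbx2 were left out, and a bin was kept if its share reached the 92nd percentile of the uninjured (opposite) side of its section. This selected 12549 of 222933 bins. Of these, 6212 lay in the 3 days section, with 76 on the injured side and 6136 on the opposite side. The other 6337 lay in the 28 days section, with 2262 on the injured side and 4075 on the opposite side.

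The thalamus passes sensory and motor signals to the cortex. Its relay neurons are excitatory, send their axons to defined cortical areas and receive axons back from them, so that a cortical wound can cut the axons of neurons whose cell bodies lie far below it. The relay nuclei hold few inhibitory cells. Their inhibition comes largely from the reticular nucleus, a shell of Gad2-expressing neurons along the lateral edge of the thalamus. Tcf7l2 and Lef1 are transcription factors of the Wnt pathway that thalamic neurons keep in adult life, Prkcd is a protein kinase abundant in many relay nuclei, and Gbx2 marks nuclei of the midline.

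The score threshold was 0.169% of the UMIs of a block at 3 days and 0.191% at 28 days. At 28 days the lowest member of the injured side had a score of 0.19145% and the highest bin left out had 0.19119%. The injured side had 256 members within 10% of the threshold above it and 254 bins within 10% below. At 3 days 35 of the 76 members of the injured side were that close. Values of the selecting genes themselves are not results.

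Genes that the selection did not use matched the label. A list of 12 genes of thalamic neurons (among them Slc17a6, the vesicular glutamate transporter of relay neurons, the nuclear receptor Rora, Ntng1, Synpo2, Ramp3 and Shox2) was at least 2-fold higher in relay bins than in all other bins of the same side for 12 of 12 genes, on each side of each section. On the injured side at 28 days these genes ranged from 3.18-fold to 14.9-fold higher, and on the opposite side from 4.47-fold to 11.2-fold. Since the bins were selected on genes of the same neurons, this is in part by construction. The share of all genes that high is not given, for this check or for the same check of other bins below. None of 6 genes of inhibitory neurons, of 6 striatal genes or of 8 genes of choroid plexus and ependyma was at least 2-fold higher in relay bins. Of the cortical and hippocampal lists, Rorb and Prox1 were, at 2.77-fold and 3.47-fold on the injured side at 28 days. In the 76 members of the injured side at 3 days Rorb, Cux2 and Prox1 were 3.37-fold, 3.37-fold and 2.75-fold higher, from 12, 10 and 17 UMIs. All 6 habenular genes and 4 of the 6 hippocampal genes had 0 UMIs in these 76 bins, where 0.5 UMI added to each sum gives no usable ratio. The relay bins formed mostly single patches, with 91.6% of the members of the opposite side and 80.8% of those of the injured side in the largest patch at 28 days. At 3 days these shares were 99.3% and 59.2%. The sections held a median of 851 and 610 UMIs per bin at 3 and 28 days. At 28 days the median was 492 UMIs per relay bin on the injured side and 612 on the opposite side.

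**Figure D1:**
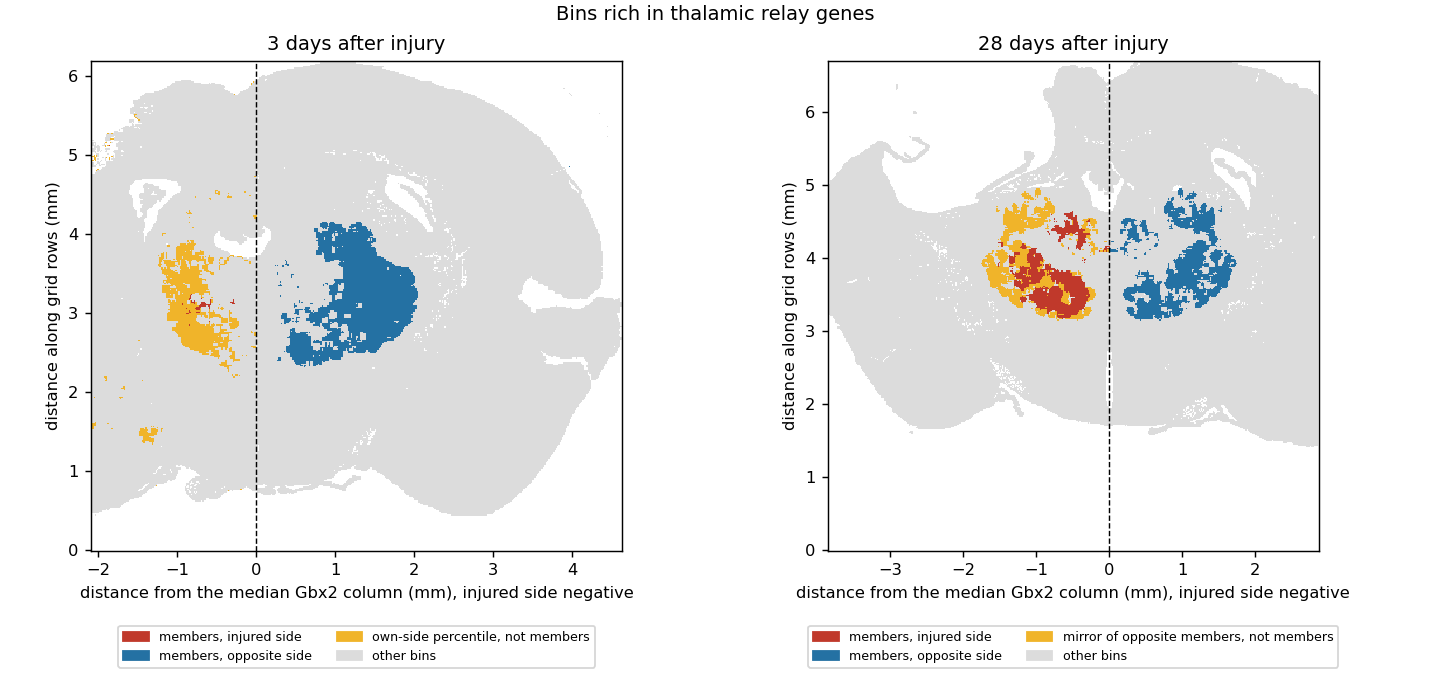
Maps of both sections, with distance from the column of the median Gbx2 UMI on the x axis (mm, injured side negative) and distance along the grid on the y axis (mm). Red and blue bins are relay bins of the injured and opposite side, yellow bins are the second region used in each section (3 days: bins above the injured side's own percentile; 28 days: mirror image of the opposite side members) and grey bins are all others. At 3 days 45 of the 76 red bins are in 1 patch, and at 28 days red bins lie nearer to the midline than blue ones.

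The position of the relay bins differed between the sides, which touches each comparison. At 28 days their median distance from the midline was 704 µm on the injured side and 1024 µm on the opposite side. The lateral part of the thalamus of the injured side thus gave few members: in the band 1250 to 1500 µm from the midline 6.74% of bins were members on the injured side and 58.1% on the opposite side. For this reason a second region that uses no score on the injured side was taken at 28 days, the mirror image of the opposite side members (4074 bins, called mirror area here), of which 1382 were also members. At 3 days the section was not symmetric. Gad2, which marks the reticular nucleus, reached 583 CPM (UMIs of the gene per 1000000 UMIs of the region) at 1000 to 1250 µm from the midline on the injured side and 2.89 CPM in the same band of the opposite side, where it reached 305 CPM only at 1500 to 1750 µm. Gad2 thus lay nearer to the midline on the injured side, and the mirror area held 2308 Gad2 UMIs against 34 in the relay bins of the opposite side, and 21056 UMIs of the choroid plexus gene Ttr against 145. In place of a mirror area a second set was formed at 3 days from the bins of the injured side above their own 92nd percentile, a score of 0.0504% (2902 bins, called own-scale set here). In this set all 12 thalamic neuron genes were at least 2-fold higher than in the other bins of that side, by 2.60-fold to 8.41-fold, and so were Rorb at 2.24-fold and the hippocampal markers Prox1 and C1ql2 at 4.66-fold and 5.86-fold. At 3 days the nuclei cut by the section and effects of the injury cannot be told apart.

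All comparisons are log2 ratios of CPM, injured over opposite side, with 0.5 UMI added to each sum. Brackets give 95% exact conditional binomial intervals that cover counting error only. With 1 section per time point there was no test against the spread between animals, and a gene is called higher or lower only by size, at a 2-fold difference, among genes with at least 50 UMIs over both sides. A gene that is scarce on the opposite side reaches this minimum only if it is high on the injured side, and had to differ. Counts are therefore also given for the genes that would reach the minimum with the CPM of the opposite side on both sides, called countable here. In tissue squares, fewer cells of a type and less RNA per cell cannot be told apart.

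At 28 days the relay bins of the injured side carried the transcripts of reactive microglia and astrocytes. Their neuronal genes were close to those of the opposite side, in part by construction, since bins of both sides were kept for a high thalamic score. Of 9503 genes, 152 (1.6%) were at least 2-fold higher and 49 (0.516%) at least 2-fold lower, with a median over all genes of -0.01. Of 9354 countable genes 84 (0.898%) were higher. On the scale of UMIs per bin, which shifts every gene by -0.34 because the bins of the injured side held fewer UMIs, the counts were 93 higher and 193 lower. All 12 microglia genes were higher, with a median of 3.07, and their summed level was 2493 CPM against 346 CPM. Of the 12 genes 9 were countable, with a median of 2.93. Tyrobp, the adaptor of TREM2, had 395 UMIs (313 CPM) on the injured side and 52 UMIs (18.1 CPM) on the opposite side, a log2 ratio of 4.10 (3.69 to 4.56). C1qa, a subunit of the complement starter C1q, had 753 UMIs against 155, a ratio of 3.46 (3.22 to 3.73). The microglial surface receptor Csf1r, needed for microglial survival, differed less, at 2.08 (1.70 to 2.48).

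Genes of disease-associated microglia (DAM), the lipid-handling phagocytic state, were higher for 14 of the 15 that had enough UMIs, with a median of 2.31, and for 6 of the 7 that were countable, with a median of 1.47. The highest ratio among genes with at least 200 UMIs was that of Cst7, a cysteine protease inhibitor, with 206 UMIs on the injured side and 3 on the opposite side, a ratio of 7.07 (5.72 to 9.58). Spp1 (osteopontin) followed with 418 UMIs against 17, a ratio of 5.77 (5.11 to 6.60). Cst7 and Spp1 were not countable, and both passed the UMI minimums only through the injured side. Apoe, the lipid carrier of astrocytes and activated microglia, was at 7741 CPM against 2790 CPM, a ratio of 1.47 (1.43 to 1.52). Ctsb, a lysosomal protease, was the DAM gene below 2-fold, at 0.91 (0.72 to 1.10).

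The homeostatic list was uneven. Of its 4 genes with enough UMIs 2 were countable. Of these Fcrls was at least 2-fold higher and the other was not, so their median of 2.14 lies between unlike values. Fcrls had 294 UMIs against 50, a ratio of 3.73 (3.31 to 4.21), and the lysophospholipid receptor Gpr34 had 38 against 20, a ratio of 2.10 (1.30 to 2.97). P2ry12, the ADP receptor of resting microglia, had 25 UMIs against 29, a ratio of 0.98 (0.14 to 1.80). Tmem119, under the minimum of 50 UMIs, had 17 against 24, at 0.70 (-0.30 to 1.65). Gpr34 and P2ry12 were not countable. P2ry12 and Tmem119 lay below Csf1r, and the interval of P2ry12 overlapped that of Csf1r.

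Complement genes were higher for 7 of 7, with a median of 3.00, of which 4 were countable. C4b, which astrocytes, oligodendrocytes and other cells make after injury, had 170 UMIs against 48, a ratio of 3.00 (2.54 to 3.51). Of the 14 genes of interferon and antigen presentation 4 had enough UMIs, all of them higher, and only 2 were countable. B2m, the light chain of class I molecules, had 88 UMIs against 36. The class II invariant chain Cd74 had 90 against 3. The class II gene H2-Aa had 45 UMIs on the injured side and 0 on the opposite side, under the UMI minimum. It is thus not called higher. Against a floor of 3 counts over the region its ratio was at least 34.2-fold. T cell genes summed to 15.1 CPM against 4.17 CPM, with Cd3e at 0 and 1 UMI.

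Astrocytes showed a narrower set. Gfap, the intermediate filament of reactive astrocytes that is scarce in resting thalamus, had 1086 UMIs (860 CPM) against 58 (20.2 CPM), a ratio of 5.40 (5.03 to 5.82). Serpina3n, a secreted protease inhibitor of reactive astrocytes and oligodendrocytes, had 428 against 23, at 5.38 (4.80 to 6.08). Vim, another intermediate filament, stood at 1.33 (0.94 to 1.74). These were the 3 of 6 reactive astrocyte genes past 2-fold. Serpina3n was not countable, and of the 5 countable genes 2 were higher, with a median of 0.80. Among 10 astrocyte transporters and channels only the water channel Aqp4 passed, at 1.59 (1.42 to 1.77), and the list's median was 0.27, or -0.07 on the scale of UMIs per bin. The glutamate transporter Slc1a2 stood at 0.25 (0.17 to 0.34).

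The lists of thalamic neuron, relay channel and cytoskeleton genes held no gene at least 2-fold lower. The 12 thalamic neuron genes had a median of -0.15 and a range of -0.33 to 0.16, and a median of -0.49 on the scale of UMIs per bin. Slc17a6 had a ratio of -0.26 (-0.43 to -0.10), Rora of 0.14 (0.05 to 0.23). Channels and receptors of relay cells, such as the T-type calcium channel Cacna1g, which lets relay cells fire in bursts, and the pacemaker channel Hcn2, had a median of -0.17, with Cacna1g at 0.22 (0.09 to 0.35) and Hcn2 at -0.17 (-0.26 to -0.07). All 10 cytoskeleton and synapse genes were below 0, with a median of -0.26. The neurofilaments Nefl, Nefm and Nefh were the lowest, at -0.50 (-0.64 to -0.37), -0.58 (-0.77 to -0.41) and -0.56 (-0.73 to -0.40). Myelin genes had a median of -0.02 and endothelial genes one of -0.13. These neuronal values describe bins that were kept because their thalamic score was high.

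The lowest ratios among genes with at least 200 UMIs were those of Calb2, Nexn and Pvalb. Calb2 (calretinin) had 30 UMIs against 538, a ratio of -2.95 (-3.56 to -2.45), Nexn 35 against 237, at -1.55 (-2.13 to -1.06), and Pvalb (parvalbumin) 114 against 636, at -1.29 (-1.59 to -1.002). The other 7 of the 10 lowest, among them Tenm2, Epha8 and Scn4b, lay between -0.94 and -0.79. Conversely Tnnt1 and Necab1, of the same list of first-order and higher-order nuclei as Calb2 and Pvalb, stood at 0.87 (0.70 to 1.05) and 0.67 (0.48 to 0.85). When the injured side members were set against their own mirror positions on the opposite side (2257 bins), Calb2 moved to -1.27 (-1.94 to -0.68) and Pvalb to -0.37 (-0.72 to -0.02), with Nexn at -1.40 (-2.01 to -0.85), while the microglia median was 2.72 and Gfap was at 5.74 (5.18 to 6.41). In the mirror area Calb2 stood at -0.17 (-0.37 to 0.03), Pvalb at -1.21 (-1.44 to -0.98) and Nexn at -1.38 (-1.81 to -0.99). Calb2 thus varied most with the bins compared, while Nexn was at least 2-fold lower in each of these 3 comparisons.

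**Figure D2:**
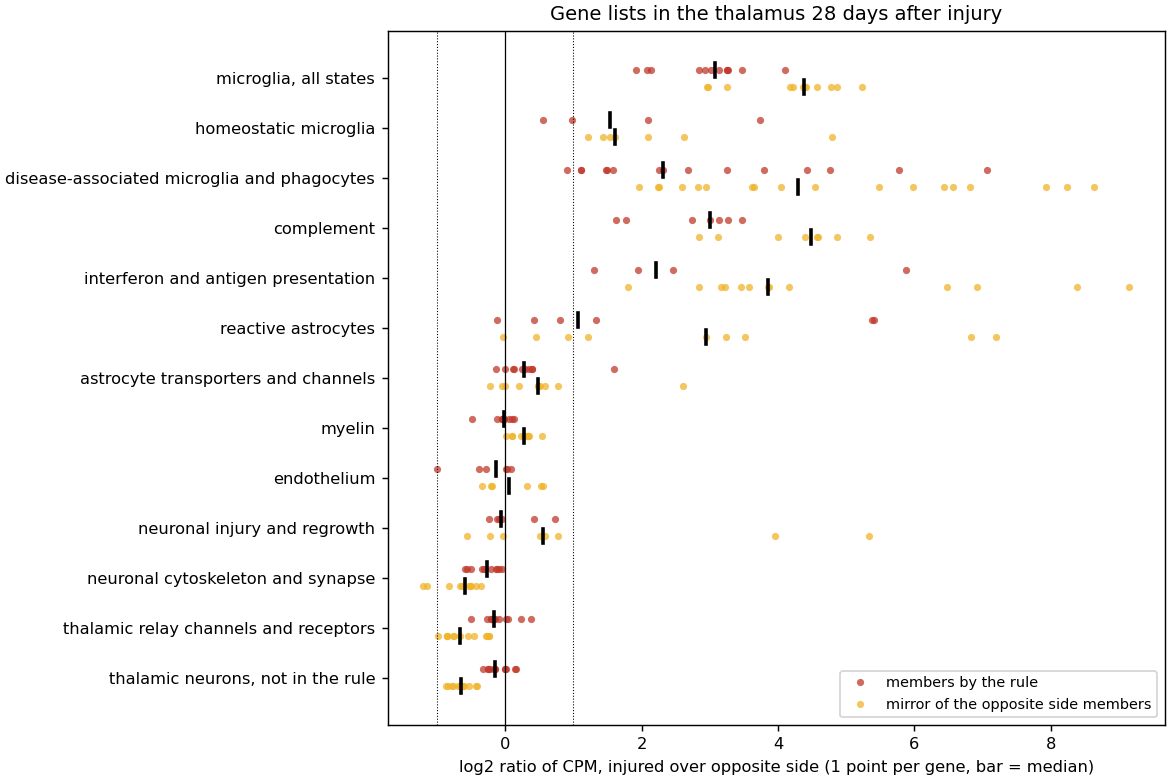
Genes of 13 lists at 28 days, with the log2 ratio of CPM (injured over opposite side) on the x axis and 1 point per gene with at least 50 UMIs. Red points are relay bins by the rule, yellow points are the mirror area, black bars are medians and dotted lines mark a 2-fold difference. Microglia genes have medians of 3.07 and 4.38 in the 2 regions, and thalamic neuron genes have medians of -0.15 and -0.65.

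The mirror area, which no score selected on the injured side, showed microglia and reactive astrocyte genes at higher ratios and thalamic neuron genes at lower ones than the relay bins. Of 10211 genes, 625 (6.12%) were at least 2-fold higher and 58 (0.568%) at least 2-fold lower. Microglia genes were higher for 12 of 12 (median 4.38, 5901 CPM against 346 CPM), DAM genes for 18 of 18 (median 4.29), complement for 8 of 8 (median 4.48), interferon and antigen presentation for 13 of 13 (median 3.85) and reactive astrocyte genes for 6 of 9 (median 2.95). Many of these passed the minimum only through the injured side. Of 9729 countable genes 301 (3.09%) were higher, among them 10 of 10 microglia, 7 of 7 DAM (median 2.95), 6 of 6 complement, 3 of 5 reactive astrocyte and 2 of 2 interferon genes. Homeostatic genes were higher for 7 of 7, with a median of 1.60 and a range of 1.22 to 4.80 in which Fcrls was the highest, and 3 of them were countable.

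Single genes of the mirror area reached large ratios from near absence. Cst7 had 1014 UMIs against 3, a ratio of 8.63 (7.30 to 11.13), Spp1 3875 against 17, at 8.24 (7.61 to 9.07), and Gpnmb, a lysosomal membrane protein of lipid-laden phagocytes, 980 against 5, at 7.93 (6.84 to 9.69). Gfap had 4851 UMIs (2310 CPM) against 58 (20.2 CPM), at 6.83 (6.47 to 7.24). H2-Aa had 207 UMIs against 0, at least 94.5-fold higher. Apoe made up 21489 CPM against 2790 CPM. The chemokine Ccl3 had 84 UMIs against 4.

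Every thalamic neuron gene was below 0 in the mirror area, by less than 2-fold in CPM. The bins of the opposite side were kept for a high thalamic score and the mirror area was not. Lower values thus follow in part from the selection. The ratios ranged from -0.87 to -0.42 with a median of -0.65, and all 12 intervals lay below 0. Plekhg1 was lowest at -0.87, Rora stood at -0.61 (-0.70 to -0.51) and Slc17a6 at -0.42 (-0.56 to -0.28). Relay channels had a median of -0.67, with the fast potassium channel Kcnc2 at -0.99 (-1.11 to -0.87), whereas Hcn2 stood at -0.27 (-0.35 to -0.19). Of the cytoskeleton and synapse list, Nefh at -1.21 (-1.37 to -1.04) and Nefm at -1.15 (-1.33 to -0.98) were the 2 genes past 2-fold. The lowest ratio of all genes with at least 200 UMIs was that of Scn4b, a sodium channel subunit, at -1.44 (-1.75 to -1.14). Myelin genes had a median of 0.28 and endothelial genes one of 0.05. On the scale of UMIs per bin every gene of the mirror area shifted by -0.45. The thalamic neuron median was then -1.10 with 9 of 12 genes at least 2-fold lower, 8 of 13 relay channels were, the myelin and endothelial medians were -0.18 and -0.40, and over all genes 386 were higher and 658 lower.

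Markers of other tissue differed in the mirror area too. Gad2 had 56 UMIs against 16, a ratio of 2.23 (1.44 to 3.16), and in squares of 320 µm it reached 717 CPM in the mirror area against at most 59.2 CPM on the opposite side, with 3 of 21 squares above all of the opposite side. The inhibitory neuron list summed to 70.5 CPM against 34.4 CPM, and of its 2 genes with enough UMIs the other, the neuropeptide Npy, had 21 UMIs against 46, at -0.66 (-1.50 to 0.10). Of the choroid plexus and ependyma list 2 genes had enough UMIs, the transthyretin gene Ttr with 177 against 85, at 1.51 (1.13 to 1.90), and the cilia factor Foxj1 with 51 against 33, at 1.07 (0.42 to 1.76). Whether part of the lower thalamic neuron values came with these bins was not tested.

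In the 2692 mirror bins that were not members, thalamic neuron genes had a median of -1.21 and 8 of 12 were at least 2-fold lower, against 3.25% of 9845 genes tested. Of these bins 2298 had been left out for a low score of genes of the same neurons and 394 by the Gbx2 limit, so their low neuronal values follow in part from the selection, as the near-equal ones of the members do. Their microglia median was 4.77. The score genes are not in that list, but over squares of the mirror area microglia and thalamic neuron lists ran opposite (Pearson's r -0.88). The microglia value is thus not free of the selection.

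Part of the thalamus of the injured side lay within a connected zone rich in phagocyte genes, a single patch in each section that 6 genes placed. It held 734 of 2262 members (32.4%) and 2315 of 4074 mirror bins (56.8%) at 28 days. The 6 genes were Cd68 and Laptm5 of the microglia list and Ctsz, Lgals3, Lyz2 and Cd52 of the DAM list, so that the ratios of these genes without the zone are lowered by its definition. Without the zone, 10 of 10 microglia genes were still at least 2-fold higher in the remaining 1528 members, against 0.953% of the genes tested, with a median of 2.29. Gfap had 231 UMIs against 58, a ratio of 3.69 (3.28 to 4.14). Cst7, which again passed the minimum through the injured side, had 48 against 3, at 5.49 (4.07 to 8.03). DAM genes were higher for 5 of 9, with a median of 1.21, and complement genes for 4 of 5, with a median of 2.48. Thalamic neuron genes had a median of 0.00 there. In the 1759 mirror bins outside the zone the microglia median was 2.12. Thalamic neuron genes had a median of -0.11 in these bins, against -0.65 in the whole mirror area, so the lower values of that list lay mostly within the zone. The zone was placed by phagocyte genes. Over squares of the mirror area DAM and thalamic neuron lists ran opposite (Pearson's r -0.85). Leaving out the zone thus removed bins low in thalamic neuron genes in part by its definition. DAM genes were at least 2-fold higher there for 6 of 10, complement genes for 4 of 6, reactive astrocyte genes for 2 of 6, interferon genes for 1 of 2 and homeostatic genes for 1 of 2, against 1.44% of 9382 genes tested. The counts without the zone, in members and in mirror bins, were not limited to countable genes. Some of the genes counted entered only through the injured side. The neurofilaments Nefh and Nefm were still at -1.17 (-1.39 to -0.96) and -1.12 (-1.35 to -0.89) outside it.

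**Figure D3:**
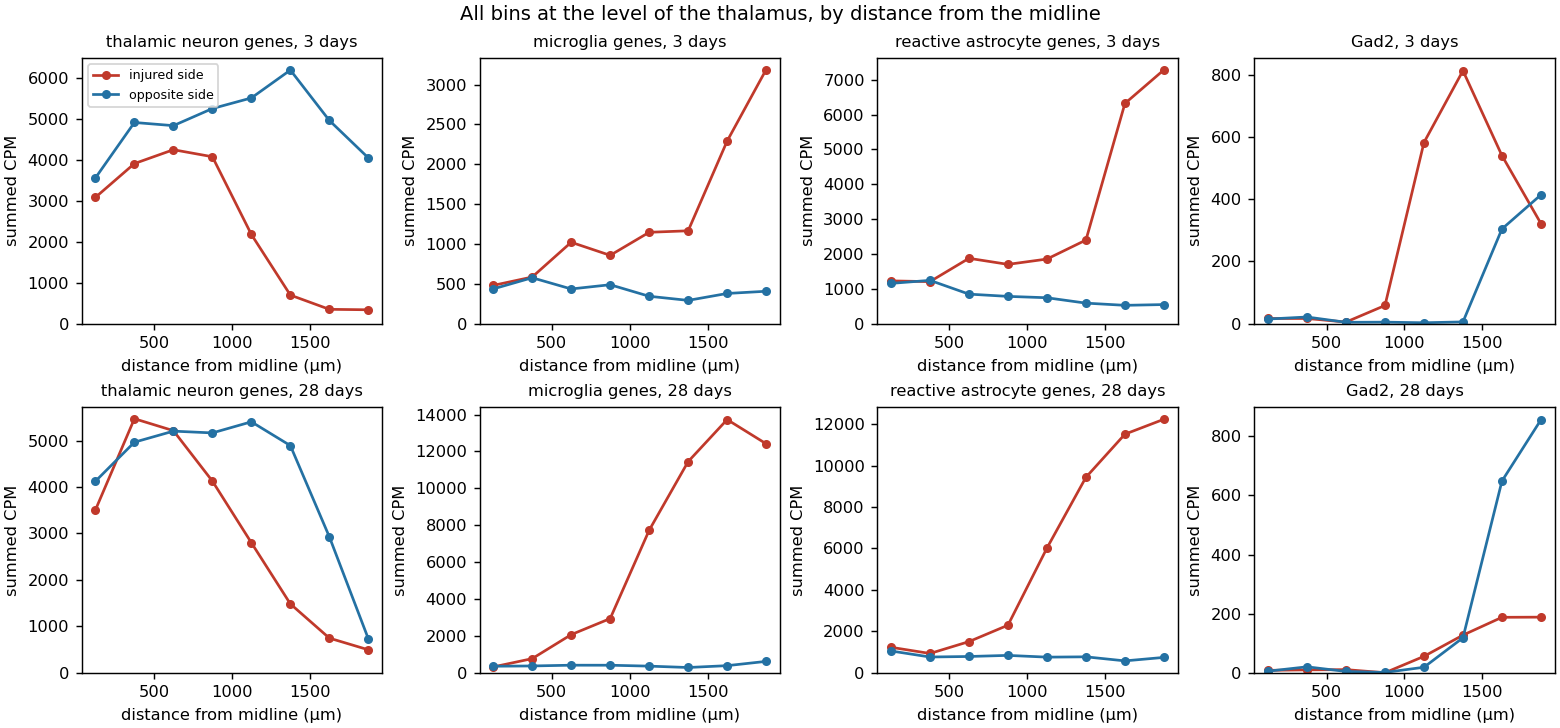
Summed CPM of gene lists and of Gad2 in all bins at the level of the thalamus, by distance from the midline (µm, bands of 250 µm), at 3 days (top) and 28 days (bottom). Red is the injured and blue the opposite side, and no score was used. At 28 days microglia genes reach 13730 CPM at 1500 to 1750 µm on the injured side against 383 CPM opposite, and thalamic neuron genes are at 745 against 2929 CPM in the same band.

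The glial level depended on the distance from the midline. Across all bins at the level of the relay nuclei, with no selection by score, the microglia list at 28 days was at 315 CPM within 250 µm of the midline on the injured side and at 352 CPM on the opposite side. On the injured side it was at 2066 CPM at 500 to 750 µm, at 7726 CPM at 1000 to 1250 µm and at 13730 CPM at 1500 to 1750 µm, whereas every band of the opposite side up to 1750 µm lay between 283 and 408 CPM. Thalamic neuron genes were higher on the injured side at 250 to 500 µm, at 5473 against 4967 CPM, and about level at 500 to 750 µm, at 5216 against 5205 CPM. Further out they were at 2801 against 5406 CPM at 1000 to 1250 µm and at 1483 against 4894 CPM at 1250 to 1500 µm. The phagocyte-rich zone covered 78.1% and 91.0% of bins of the injured side in the last 2 bands. Microglia genes were thus also high in bands where neuronal genes were level, at 500 to 750 µm, where the zone covered 24.6% of bins.

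Relay bins were uneven among themselves. Summed in squares of 320 µm with at least 50 members, the microglia list of the injured side at 28 days ranged from 429 to 4759 CPM over 11 squares with a median of 2718 CPM, and over 21 squares of the opposite side from 185 to 581 CPM with a median of 335 CPM. Of the 11 squares, 9 lay above every square of the opposite side. The other 2 were among the 4 squares nearest to the midline. Gfap ranged from 35.7 to 2201 CPM on the injured side, with 8 squares above all of the opposite side (0 to 174 CPM), and Spp1 from 8.94 to 967 CPM, with 10 squares above (0 to 20.9 CPM). Thalamic neuron genes overlapped, with 4250 to 6866 CPM against 4543 to 7476 CPM and 3 squares below all of the opposite side. These bins were kept on both sides for a high thalamic score.

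At 28 days squares with more microglial RNA had less thalamic neuron RNA. Over the 11 squares of the injured side Pearson's r between the microglia and thalamic neuron lists was -0.84 and Spearman's rho -0.72, and between the reactive astrocyte and thalamic neuron lists they were -0.88 and -0.80. Over the 21 squares of the mirror area the microglia values were -0.88 and -0.88. In the own-scale set at 3 days, over 14 squares, they were 0.12 and 0.30 for microglia genes and -0.20 and -0.31 for reactive astrocyte genes. These describe neighbouring pieces of 1 section that share a library. Both lists are shares of the same UMI total, so a high value of one lowers the other, by an amount that was not tested.

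**Figure D4:**
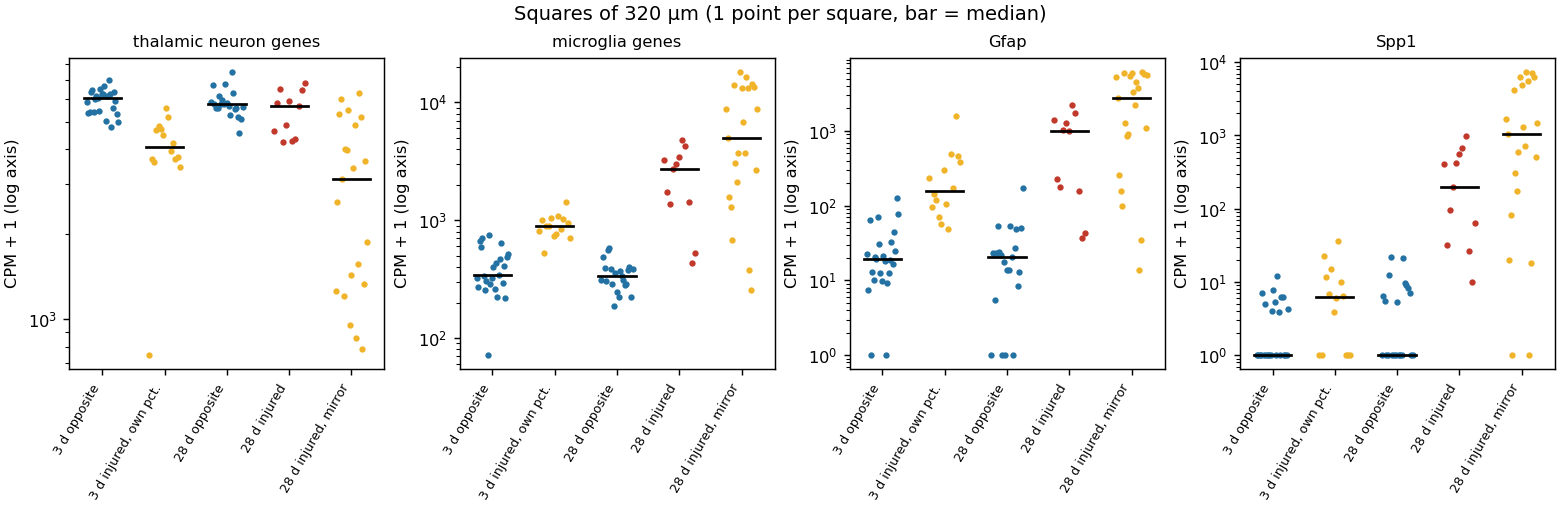
Levels per square of 320 µm in CPM plus 1 on a log axis, for thalamic neuron genes, microglia genes, Gfap and Spp1. Points are squares, bars are medians, blue is the opposite side, red the relay bins of the injured side and yellow the second region of each section. At 28 days 9 of 11 red squares lie above all blue squares for microglia genes. Thalamic neuron genes overlap between red and blue squares, whose bins were all kept for a high thalamic score.

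At 3 days the selection left 76 bins on the injured side, with 76204 UMIs, and most of their ratios could not be resolved. Of 9886 genes, 1189 (12%) were at least 2-fold higher and 1015 (10.3%) at least 2-fold lower. At this depth a few UMIs carry a gene past 2-fold, and against the 76 mirror positions of the opposite side 8 of 523 genes were higher and 1 was lower. In these bins microglia genes were higher for 6 of 10, with a summed ratio of 0.80 (0.36 to 1.19), and complement genes for 3 of 5. Gfap had 10 UMIs against 165 in 6136 bins, a ratio of 2.17 (1.02 to 3.02). The highest ratio among genes with at least 200 UMIs was that of Cbln1, a synaptic organiser of some thalamic nuclei, with 41 UMIs against 163, at 4.17 (3.63 to 4.66). Calb2 had 0 UMIs against 733, at least 3.44-fold lower against the floor of 3 counts, and Pvalb 1 against 2037, at -4.26 (-10.15 to -2.36). The direction of Cbln1, Calb2 and Pvalb turned under other ways of choosing the bins. Thalamic neuron genes had a median of -0.22.

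The own-scale set of 2902 bins gave 3 days values with narrow intervals. Of 10911 genes, 515 (4.72%) were at least 2-fold higher and 174 (1.59%) at least 2-fold lower, and on the scale of UMIs per bin, with a shift of 0.38, 1203 and 80 were. At its ends, C1ql2, which is also a hippocampal marker, had 381 UMIs against 14, a ratio of 5.42 (4.70 to 6.35), and Cbln1 1655 against 163, at 4.04 (3.81 to 4.29), whereas Pvalb had 115 against 2037, at -3.44 (-3.73 to -3.17), and Scn4b 104 against 1157, at -2.77 (-3.08 to -2.48). The thalamic neuron list had a median of -0.61, with Ramp3 at -1.96 (-2.13 to -1.79), Synpo2 at -1.23 (-1.35 to -1.11) and Shox2 at 0.38 (0.28 to 0.48). Gad2 had 70 UMIs against 34, at 1.73 (1.13 to 2.38). In the neuronal ratios of this set anatomy and injury cannot be told apart, and since its bins needed a score of 0.0504% against 0.169% on the opposite side, low thalamic neuron ratios follow in part from the selection.

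Glial genes of the own-scale set were higher on the injured side at 3 days. Microglia genes were higher for 12 of 12, with a median of 1.41 and 935 CPM against 379 CPM, and without the phagocyte-rich zone, which held 74 of these bins, again for 12 of 12 against 4.46% of the genes tested. These bins lay a median of 832 µm from the midline, and the relay bins of the opposite side 1280 µm. Position and injury thus cannot be told apart in the glial ratios of this set either. Homeostatic genes were higher for 5 of 7 (median 1.34), complement for 7 of 7 (median 1.60), interferon and antigen presentation for 7 of 9 (median 1.33), reactive astrocyte genes for 4 of 7 (median 1.49) and DAM genes for 7 of 14 (median 0.91). The interferon count fell to 1 with blocks of 3 by 3 bins and to 0 at the 95th percentile, and the DAM count to 2 at the 95th percentile and to 4 without the zone. Of 10627 countable genes 338 (3.18%) were higher, among them 12 of 12 microglia, 6 of 6 complement, 4 of 6 reactive astrocyte, 2 of 9 DAM and 2 of 4 interferon genes. P2ry12 had 69 UMIs against 55, a ratio of 1.03 (0.50 to 1.57), and Tmem119 81 against 52, at 1.34 (0.82 to 1.87), next to C1qa at 1.27 (1.06 to 1.49) and Tyrobp at 1.21 (0.92 to 1.51). Gfap had 1254 UMIs against 165, at 3.62 (3.39 to 3.87). Serpina3n stood at 2.78 (2.29 to 3.33) and C4b at 2.66 (2.30 to 3.05). Apoe was level, at 2984 CPM against 3074 CPM, Cst7 had 10 UMIs against 0, and Spp1 35 against 17. In all bins at 750 to 1000 µm from the midline, microglia genes were at 857 CPM against 488 CPM and Gfap at 506 against 24.6 CPM. At 250 to 500 µm microglia genes were at 585 against 576 CPM, and Gfap was lower on the injured side, at 109 against 315 CPM.

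Some genes of the neuronal injury and regrowth list were higher in the own-scale set at 3 days. Whether cut axons raised them was not tested, and anatomy and injury cannot be told apart in this set. Atf3, a transcription factor that neurons switch on when their axon is cut, had 158 UMIs in the own-scale set and 1 UMI in the relay bins of the opposite side, a ratio of 7.43 (5.51 to 13.32). Its level was uneven, from 0 to 196 CPM over 14 squares of 320 µm with a median of 4.25 CPM, and 6 of these squares lay above all 24 of the opposite side (0 to 6.07 CPM). Jun, its partner, had 813 UMIs against 373, at 1.83 (1.65 to 2.01), the stress factor Ddit3 953 against 499, at 1.63 (1.48 to 1.79), and Ecel1, an endopeptidase of injured neurons, 45 against 7, at 3.30 (2.23 to 4.78). The pro-apoptotic gene Hrk, outside the list, had 207 against 18, at 4.19 (3.53 to 5.01). Atf3, Ecel1 and Hrk were not countable and passed the minimum through the injured side. The growth genes Gap43 and Stmn2 stood at 0.56 (0.48 to 0.64) and 0.48 (0.39 to 0.57), and 5 of the 9 genes of the list with enough UMIs were at least 2-fold higher, or 2 at the 95th percentile, 3 in the largest patch and 3 of the 7 countable ones. In all bins by distance, Atf3 had 1 and 2 UMIs in the bands within 500 µm of the midline, 16 at 500 to 750 µm, 137 at 750 to 1000 µm, 93 at 1000 to 1250 µm, 67 at 1250 to 1500 µm, and 26 and 11 in the last 2 bands of the injured side, and 2 or fewer in each of the 8 bands of the opposite side. Where Atf3 peaked, thalamic neuron genes were at 4080 CPM against 5258 CPM and the phagocyte-rich zone covered 2.13% of bins. At 1250 to 1500 µm Atf3 was at 59.0 CPM, against 72.2 CPM at its peak, in bins where thalamic neuron genes were at 698 CPM and Gad2 at 814 CPM.

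At 28 days Atf3 and Ecel1 had few UMIs in the relay bins. There Atf3 had 9 UMIs against 6, a ratio of 1.74 (0.12 to 3.54), and Ecel1 7 against 3, at 2.29 (0.28 to 4.99), both under the minimum of 50 UMIs. None of the 6 genes of the list with enough UMIs was at least 2-fold higher. In the mirror area Atf3 had 73 UMIs against 6, a ratio of 3.95 (2.87 to 5.55), and Ecel1 103 against 3, at 5.34 (3.97 to 7.86), genes that passed the minimum through the injured side, while Jun stood at 0.59 (0.34 to 0.83) and Ddit3 at 0.51 (0.28 to 0.75). Of the 6 countable genes of the list none was at least 2-fold higher in the mirror area, with a median of 0.24. By distance, Atf3 was most abundant at 1500 to 1750 µm, with 85 UMIs against 0, where the zone covered 98.4% of bins. At 750 to 1000 µm it had 5 UMIs against 1, or 6.48 CPM against 1.01 CPM.

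**Figure D5:**
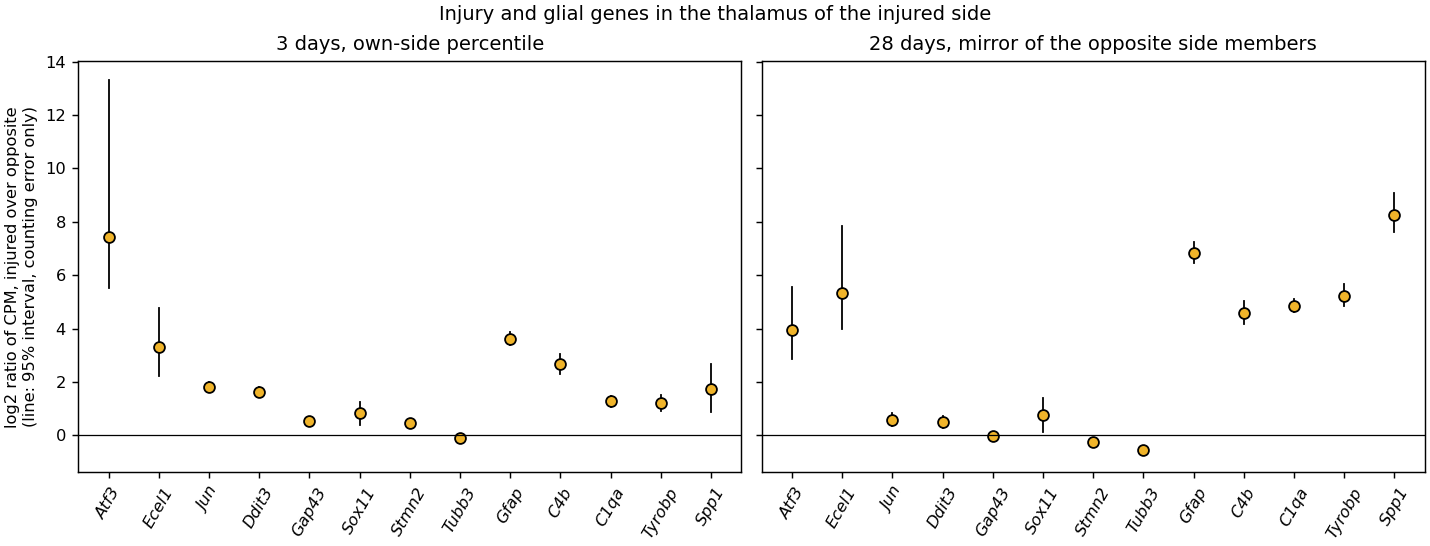
Log2 ratio of CPM (injured over opposite side, y axis) for injury, growth and glial genes, with 95% intervals for counting error only, in the own-scale set at 3 days (left) and in the mirror area at 28 days (right). Atf3 is at 7.43 and 3.95, Jun at 1.83 and 0.59, and Spp1 at 1.72 and 8.24. Atf3 and Spp1 passed the UMI minimum through the injured side in both panels.

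Set side by side, the own-scale set at 3 days and the relay bins at 28 days had unlike ratios of phagocyte genes, while animal, plane of section, region and time cannot be told apart. The microglia median was 1.41 at 3 days and 3.07 in the relay bins at 28 days, and Gfap was at 3.62 and 5.40. Apoe was at -0.04 (-0.08 to -0.01) and 1.47 (1.43 to 1.52), and Spp1 at 1.72 (0.87 to 2.67) and 5.77 (5.11 to 6.60). In the 3737 bins above the injured side's own percentile at 28 days, Gfap was at 5.84 (5.48 to 6.26) and Spp1 at 6.59 (5.95 to 7.42). Spp1 was not countable in any of these sets and passed the minimum through the injured side. The countable DAM genes had a median of 0.32 over 9 genes in the own-scale set at 3 days. In the relay bins at 28 days they had a median of 1.47 over 7 genes. For P2ry12, which had few UMIs and was not countable at 28 days, the values were 1.03 and 0.98. Fcrls of the same homeostatic list was at 3.73 (3.31 to 4.21) in the relay bins at 28 days. The countable homeostatic genes had a median of 1.34 over 7 genes at 3 days and of 2.14 over 2 genes at 28 days. Of these 2 only Fcrls was at least 2-fold higher, so the medians do not show a shift of the list.

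Other tissue of the same sections gave a scale for these ratios. In the midline thalamus, bins whose block held 3 or more Gbx2 UMIs, the microglia median was 0.35 at 3 days and 1.10 at 28 days, with Serpina3n, at 0.77, as the highest reactive astrocyte gene at 3 days and the thalamic neuron medians at -0.31 and -0.24. In bins outside both the relay nuclei and the phagocyte-rich zone at 28 days, the microglia median was 0.42, the DAM median 0.29 and the complement median 0.48. The relay bins outside the zone stood at 2.29 for microglia, 1.21 for DAM and 2.48 for complement. These medians cover unlike genes, since 9230 genes had enough UMIs in the relay bins outside the zone and 13959 in the other tissue. Some genes of the relay bins, such as Cst7, entered only through the injured side. The medians are thus not like for like, and their difference was not tested with 1 section.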

How the data were processed

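Brain sections of 10 µm from formalin-fixed, paraffin-embedded tissue were assayed by the authors with Visium HD and a mouse probe set (v2.0). The deposited matrices hold UMI counts per gene and 16 µm bin, made by the authors with Space Ranger 4.0.1 per the file headers, and mm10 is named in the submitters' processing notes. Nothing was normalised before deposit. Members, gene lists and comparisons were chosen with earlier results of these data known.

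The sides were split at the grid columns 130 and 240 at 3 and 28 days. Counts were summed over the bins of a region and divided by the region's total (CPM). Genes with at least 50 UMIs over both sides entered. Named genes were the members of 29 lists (252 genes, 249 of them in the files) and the 10 highest and 10 lowest ratios with at least 200 UMIs. Lists were described by counts and medians. Where a gene had 0 UMIs in a region, a floor of 3 counts over the region was used. Hrk is named as a gene with one of the 10 highest ratios. The phagocyte-rich zone was taken from tiles of 4 by 4 bins, smoothed over 5 by 5 tiles, above the 99th percentile of tiles on the uninjured side, in patches of at least 25 tiles. With 1 section per time point no test between animals was made, and intervals cover counting error only. The sections held 120615873 and 82422389 UMIs. The files of both sections share 84781 bin names, which are grid positions and not shared tissue.

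Alternatives were other blocks, percentiles, filters, pseudocounts and scalings, including TMM factors of edgeR 4.0.16 in R 4.3.3. The own-scale set, the injured side members' mirror as reference, the zone and the alternatives on the own-scale set, the mirror area and the UMI minimum were added after seeing the data. Python 3.11.15, numpy 2.4.6, scipy 1.17.1, pandas 2.3.3 and matplotlib 3.10.9 were used, and the code was tested on simulated data. Cx3cr1 and Xist were not analysed here.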

Additional observations from a re-analysis of the deposited data

Results flagged for a closer look

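The summed level of endothelial genes differed in direction between the sections. In the relay bins the log2 ratio of their sum was -0.193 (-0.38 to -0.01) at 28 days, from 328 UMIs on the injured side, and 0.635 (0.09 to 1.10) at 3 days, from 35 UMIs in 76 bins. The difference itself was not tested, and section, animal and time cannot be told apart. In the own-scale set at 3 days the value was 0.11 (-0.00 to 0.22).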

How the results depend on the processing

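No paired analysis was possible because each time point had 1 section, and no replicate could be left out. The cause of each change below was not tested. The 76 members of the injured side at 3 days, with 1189 genes higher and 1015 lower, changed with most choices in their definition. They numbered 257 (393 higher, 416 lower) with blocks of 3 by 3 bins, 193 (514, 566) with 7 by 7, 25 (2565 higher) with non-overlapping blocks, 1066 (239, 244) at the 90th and 9 (4313, 357) at the 95th percentile, 161 (528, 594) with no Gbx2 limit, 45 in the largest patch and 43 with at least 200 UMIs per bin. The own-side percentile gave 2902 bins (515, 174) and the mirror area 6086 bins (340 lower). Against the mirror of the members 8 were higher and 1 was lower, with at least 200 UMIs per gene 280 and 428, and with a pseudocount of 2 UMIs 2944 and 80.

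Reversed ratios at 3 days were, with 3 by 3 bins, Calb2 0.13. With 7 by 7 bins they were Itih5 -0.0887, Ccdc184 0.0165 and Plpbp 0.12. With non-overlapping blocks they were Cbln1 -0.64, Ntrk3 -0.77, Stxbp5l -1.08, Ptprb -1.09, Itih5 -0.67 and Chd8 0.10. At the 90th percentile they were Itih5 -0.0394 and Cnnm1 0.0314, and at the 95th Calb2 2.22 and Ccdc184 0.0376. With no Gbx2 limit they were Ptprb -0.0675, Calb2 2.02 and Dnajb2 0.19. In the mirror area they were Maob -0.34, Pvalb 1.86, Unc13c 0.0738, Dnajb2 0.42, Chd8 0.0217, Cabp1 1.43 and Plpbp 0.25, and in the own-scale set Chd8 0.0529.

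In the own-scale set at 3 days, blocks of 3 by 3 bins left 1 interferon gene higher. The 95th percentile gave 1814 bins with 2 DAM, 2 injury and 0 interferon genes, the largest patch 4 DAM and 3 injury genes, and the set without the phagocyte-rich zone 4 DAM genes. UMIs per bin gave 1203 genes higher and 80 lower, with 1 thalamic neuron gene lower.

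At 28 days, blocks of 3 by 3 bins gave 31 genes lower and the 90th percentile 8 interferon genes higher. The 95th percentile gave 84 genes higher, with 8 DAM and 2 interferon genes, and no Gbx2 limit 9 DAM genes. The mirror area (4074 bins) gave 625 genes higher, with 6 reactive astrocyte, 2 injury and 13 interferon genes and a reversed median of 0.78 for inhibitory neuron genes. The own-side percentile (3737 bins) gave 284 higher and 24 lower, with 11 interferon genes. Against the mirror of the members, 25 genes were lower and 9 DAM genes higher. Without the zone 88 genes were higher, with 5 DAM, 4 complement, 1 injury and 1 interferon genes. UMIs per bin gave 93 higher and 193 lower, and in the mirror area 386 higher and 658 lower, with 9 thalamic neuron and 8 relay channel genes lower. The mirror area without the zone had 135 genes higher, with 6 DAM, 4 complement, 2 reactive astrocyte, 0 injury and 1 interferon genes. A minimum of 20 UMIs per gene gave 356 higher and 120 lower, with 11 interferon genes and a reversed median of 0.39 for inhibitory neuron genes. A minimum of 200 gave 31 higher and 3 lower, with 7 microglia, 7 DAM, 3 complement and 0 interferon genes, since fewer genes were tested. A minimum at the CPM of the opposite side gave 84 genes higher, with 6 DAM, 4 complement and 2 interferon genes, in the mirror area 301, with 7 DAM, 3 reactive astrocyte, 0 injury and 2 interferon genes, and in the own-scale set at 3 days 338, with 2 DAM, 3 injury and 2 interferon genes. TMM scaling and a minimum of 50 UMIs per bin moved no count by over 1.5 times. The column of the median Gbx2 UMI was the line already used, 130 and 240, so that this alternative gave the same values.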

Other observations

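Other gene groups were compared in the same regions. In the mirror area at 28 days, metal and oxidative stress genes were higher for 4 of 6 with a median of 1.90, against 6.12% of all genes, and for 0 of 4 without the phagocyte-rich zone, with a median of -0.02. Of the 4 that would reach the UMI minimum at the opposite side's level 2 were higher, with a median of 1.29, against 3.09% of such genes. Hmox1, the haem-degrading enzyme, had 105 UMIs against 8, a ratio of 4.09, and passed the minimum through the injured side. In the relay bins none of 4 genes of the list was at least 2-fold higher, with a median of 0.50. Genes of reactive oligodendrocytes, a list that shares Serpina3n and C4b with other lists, were higher for 3 of 5 in the mirror area (median 2.18, or 0.81 without the zone), for 2 of 4 in the relay bins at 28 days (against 1.6% of all genes) and for 3 of 5 in the own-scale set at 3 days (median 1.61, against 4.72%). Of the genes that would reach the UMI minimum at the opposite side's level these were 1 of 3, 1 of 3 and 3 of 5. Precursors of oligodendrocytes had medians of 0.42 in the relay bins and 0.53 in the mirror area at 28 days and of -0.56 in the own-scale set at 3 days.

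Genes of proliferation summed to 19 UMIs in the mirror area against 2 at 28 days, and to 49 UMIs against 19 in the own-scale set at 3 days. T cell genes summed to 50 UMIs in the mirror area against 12. Of the list of blood-derived myeloid cells 1 gene had enough UMIs in each of these regions, at 0.31 and 0.13. Immediate early genes had medians of 0.33 in the mirror area and 0.14 in the own-scale set, and mural cell genes of 0.33 and 0.44. In the relay bins of the injured side at 28 days, striatal genes summed to 93.5 CPM against 786 CPM in the other bins of that side, habenular genes to 11.9 against 143 CPM, cortical genes to 530 against 853 CPM and hippocampal genes to 231 against 212 CPM.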
